A study of Homo sapiens with 5 samples.

Results

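Vimentin, the neurofilament subunits and the other non-keratin cytoplasmic filament proteins were followed across a panel of gastric cancer cells through 9 genes, VIM, DES, GFAP, PRPH, NEFL, NEFM, NEFH, INA and NES. They were chosen by gene symbol, as every probe annotated to one of these names on the Illumina BeadChip platform, which gave 10 probes for 9 of the 20044 genes on the array. VIM had 2 probes and each of the other genes had 1. The choice was made with earlier results of these data known, including the higher VIM level in the resistant lines. Member values in the comparison with NCI-N87 are therefore a description, with no test.

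The 4 human gastric cancer lines N87-TR1 to N87-TR4 are labelled resistant to trastuzumab, an antibody drug that binds ERBB2, and each has 1 array. NCI-N87 is the gastric cancer line labelled sensitive to trastuzumab, with 1 array. All lines were kept in RPMI medium with serum, and total RNA was taken from subconfluent cells. The labels give no origin for the resistant lines, nor whether trastuzumab was present at harvest, and any p-value reflects the spread among these arrays alone, which could be technical. NCI-N87 stands alone in its group, and its own spread is unknown.

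Intermediate filaments are rope-like polymers that give a cell mechanical strength, and their subunits are specific to the cell type. Epithelia such as the stomach lining build them from paired keratins, mesenchymal cells from vimentin, muscle from desmin, astrocytes from GFAP and neurons from neurofilament proteins, alpha-internexin and peripherin. Vimentin is also known as a marker that carcinoma cells gain when they take on mesenchymal features. Nestin, a marker of neural progenitors, polymerises together with vimentin rather than alone.

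A level below is a log2 intensity after background correction and quantile normalization, and a probe is called detected where its detection p-value against negative controls is under 0.01. The arrays detected 10248 to 11069 genes in the resistant lines and 10381 in NCI-N87. Across genes, which are not independent replicates, Pearson's r was 0.943 to 0.979 between resistant lines and 0.752 to 0.765 between a resistant line and NCI-N87. ERBB2, which is amplified in NCI-N87, had a level of 10.44 ± 0.23 in the resistant lines (SD, n = 4) and 15.90 in NCI-N87. Markers of gastric epithelium check the labelled tissue. Of 8 such genes, 5 to 6 were detected in the resistant lines and all 8 in NCI-N87. By the limma test 7 of the 8 were lower, as were 10.6% of all tested genes. The exception was KRT18, at 8.09 ± 0.81 in the resistant lines (SD, n = 4) and 7.74 in NCI-N87. The summed linear intensity of the 8 genes was 2979 to 4667 in the resistant lines and 155060 in NCI-N87. The list includes ERBB2. The sum in NCI-N87 is weighted towards ERBB2 (level 15.90) and KRT19 (15.50), the brightest of the list there. Of markers of other cell types, 0 to 1 of 10 fibroblast markers and none of 6 endothelial markers were detected in a resistant line, and none of either list in NCI-N87.

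VIM, which encodes the type III protein vimentin, was bright in every resistant line and dim in NCI-N87. The signal of its brighter probe was 12433.9, 21994.7, 9384.9 and 23017.5 for N87-TR1 to N87-TR4, against 452.8 in NCI-N87. The groups did not overlap, and N87-TR3 was the lowest of the resistant lines. The level averaged 13.87 ± 0.54 in the resistant lines (SD, n = 4) and was 8.61 in NCI-N87. The difference ran from 23.2-fold in N87-TR3 to 53.6-fold in N87-TR2. The second VIM probe gave signals of 7527.1, 13435.7, 6984.1 and 11709.0 in N87-TR1 to N87-TR4 and 209.9 in NCI-N87. After normalization both probes were lowest in N87-TR3 and highest in N87-TR2, and the second showed a wider gap, from 53.0-fold in N87-TR3 to 101-fold in N87-TR2. The log2 difference of the means was 6.17 by this probe and 5.26 by the brighter one. VIM was detected in NCI-N87 by both probes, so its difference is a change of level and not an appearance from below detection. The highest VIM signal lay well under the maximum of any array, where the brightest probe read 62291.6 to 70781.3.

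PRPH encodes peripherin, the type III filament protein of peripheral and enteric neurons. Its signal was 558.5, 364.3, 311.6 and 351.3 for N87-TR1 to N87-TR4, against 103.7 in NCI-N87. It was detected in all 4 resistant lines and not in NCI-N87, and N87-TR1 was the highest. The mean level was 8.11 ± 0.65 in the resistant lines (SD, n = 4) and 4.92 in NCI-N87, where the detection limit was 6.41. Set against that limit, PRPH was at least 3.25-fold higher on average, and at least 6.12-fold higher in N87-TR1. Here and below, an "at least" fold sets the mean of the brighter group against a bound in the dimmer one, namely the array's detection limit or the probe's own level if that is higher.

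The windows before the annotated starts of VIM and PRPH are shown because these are the type III genes that were higher in all 4 resistant lines. Each is the stretch of 250 bases before the start in RefSeq GRCh38.p14, on the plus strand, with motif matches in capitals. VIM lies on chromosome 10 (chr10:17227991-17228240) and PRPH on chromosome 12 (chr12:49294897-49295146).
VIM: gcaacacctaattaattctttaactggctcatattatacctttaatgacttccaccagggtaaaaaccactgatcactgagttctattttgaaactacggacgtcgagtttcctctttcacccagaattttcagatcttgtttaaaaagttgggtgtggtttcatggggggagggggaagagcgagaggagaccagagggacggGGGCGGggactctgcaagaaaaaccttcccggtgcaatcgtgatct
PRPH: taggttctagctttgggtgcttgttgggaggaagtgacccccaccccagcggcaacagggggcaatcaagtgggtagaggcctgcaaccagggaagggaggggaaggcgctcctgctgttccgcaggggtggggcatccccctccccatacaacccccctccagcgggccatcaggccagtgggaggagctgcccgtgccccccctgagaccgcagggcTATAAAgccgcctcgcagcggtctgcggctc
The motifs searched, on both strands, were the TATA box (TATAAA), the GC box (GGGCGG), the CCAAT box (CCAAT), the AP-1 element (TGANTCA) and the E-box bound by ZEB and SNAI factors (CAGGTG). VIM held 1 GC box, 46 to 41 bases before the start. At least 1 GC box, at any position and on either strand, was found in 42.6% of 35114 RefSeq promoter windows of that length. PRPH held 1 TATA box, 31 to 26 bases before the start. By the same count, 10.7% of the windows held at least 1 TATA box. Neither window held the other motifs, so the capitals mark a different element in each gene. Of the members with low or no signal, matches are given for INA and NES alone. The INA window held 4 GC boxes and the NES window 2, and neither held any of the other motifs. Matches for DES, GFAP, NEFH, NEFL and NEFM are not given here.

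DES and GFAP, the type III genes of muscle and astrocytes, were not detected on any array. The DES signal was 111.5 to 126.5 in the resistant lines and 105.3 in NCI-N87. The GFAP signal was 105.4 to 125.2 in the resistant lines and 97.4 in NCI-N87. Neither gene was tested, and a level under the detection limit cannot be told from none. Among 9 muscle markers, 2 of 8 on the array were detected in each resistant line and 2 in NCI-N87.

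**Figure D1:**
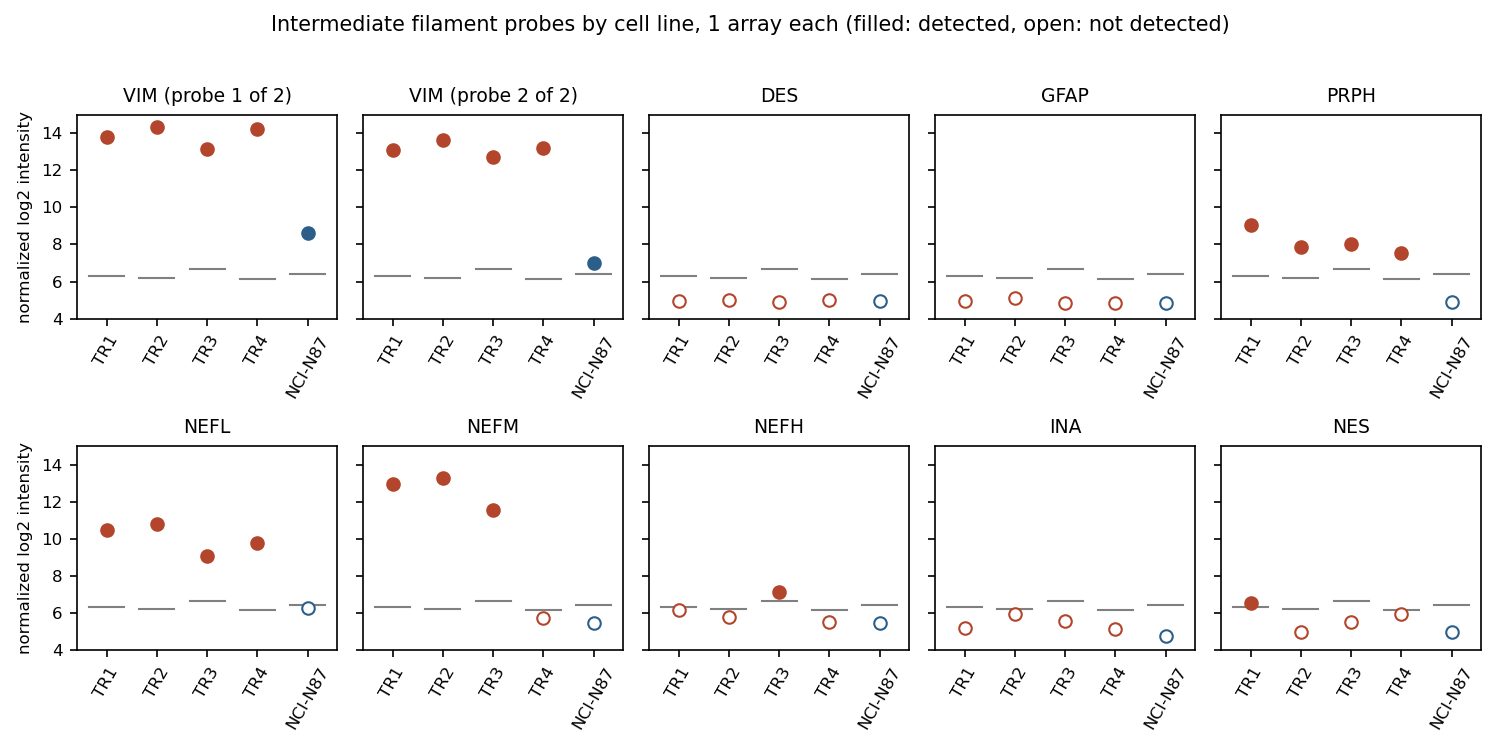
Level of each intermediate filament probe (normalized log2 intensity) in resistant N87-TR1 to N87-TR4 (red) and in NCI-N87 (blue), 1 array per point; filled points were detected, open points were not, and grey bars mark the lowest detected level of each array. Both VIM probes, PRPH and NEFL are above NCI-N87 in all 4 resistant lines, whereas NEFM is high in 3 and below detection in N87-TR4.

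The neurofilament genes split. NEFL encodes the light chain, which forms the core of the neurofilament, and NEFM the medium chain, whose tail projects from it. NEFL had signals of 1324.6, 1988.6, 570.3 and 1269.1 for N87-TR1 to N87-TR4, against 163.8 in NCI-N87. It was detected in all 4 resistant lines, while its detection p-value of 0.01558 in NCI-N87 missed the limit. The mean level was 10.04 ± 0.76 in the resistant lines (SD, n = 4) and 6.25 in NCI-N87, which puts NEFL at least 12.4-fold higher. N87-TR3 was the lowest of the resistant lines, as it was for both VIM probes. Detection in all 4 resistant lines and not in NCI-N87, as seen for NEFL and PRPH, held for 7.14% of the 12478 tested genes.

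The members' counts against NCI-N87 are a description, given beside the share of all tested genes that met the same condition. Of the 6 tested members, 5 had measured levels above NCI-N87 in all 4 resistant lines (36.9% of tested genes) and none had all 4 below it (31.7%). VIM, PRPH and NEFL were at least 2-fold higher in all 4 lines (11.6%), and VIM alone was at least 16-fold higher in all 4 (1.08%). By single arrays at least 2-fold above NCI-N87, N87-TR1 had 5 members (19.1% of tested genes) and N87-TR2 had 4 (18.6%). N87-TR3 had 5 (22.2%) and N87-TR4 had 3 (18.4%). The count for N87-TR1 includes NES, and that for N87-TR3 includes NEFH. Each entered the tests only through that array, so its place in that count follows from the detection filter. NEFH is also among the 5 above NCI-N87 in all 4 lines, though it was detected in N87-TR3 alone.

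NEFM differed most between the resistant lines. Its signal was 6842.8, 10235.5 and 2999.6 for N87-TR1 to N87-TR3, but 169.8 for N87-TR4, against 131.7 in NCI-N87. N87-TR4 thus sat beside NCI-N87, and neither array detected the probe. Against the detection limit of NCI-N87, the bounds for NEFM were at least 92.1-fold, 114.8-fold and 35.6-fold higher for N87-TR1 to N87-TR3. In N87-TR4 the level was 5.74, against 5.48 in NCI-N87. The mean over all 4 resistant lines, 10.87 ± 3.50 (SD, n = 4), therefore describes none of them. Set against the detection limit of NCI-N87, that mean was at least 22.0-fold higher with N87-TR4 and at least 72.2-fold without it. NEFM has a single probe on the array, so no second probe bears on this value.

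The remaining type IV genes stayed near or below the detection limit. NEFH, the heavy neurofilament chain, was detected in N87-TR3 alone, with a signal of 211.3 there, 157.9 to 168.3 in the other resistant lines and 131.1 in NCI-N87. NES, encoding nestin, was detected in N87-TR1 alone. Its signal was 188.1, 118.6, 137.5 and 181.3 for N87-TR1 to N87-TR4, against 108.7 in NCI-N87, and its normalized level in N87-TR2 lay below that in NCI-N87. INA, encoding the neuronal alpha-internexin, was not detected anywhere, with signals of 127.2 to 170.4 in the resistant lines and 92.2 in NCI-N87. No fold is given for these genes, because their resistant means lie under the detection limit of NCI-N87. NEFH and NES entered the tests only through the 1 array that detected them, so 6 of the 9 members were tested and DES, GFAP and INA were not.

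Within the resistant group each line was set against the other 3 with limma, on all 12478 tested genes, and a call needed a p under 0.05 after Benjamini-Hochberg adjustment. The lone array of such a comparison is assumed to vary like the rest. VIM and NEFL were lower in N87-TR3 than in the other 3 lines, but neither passed. The VIM level was 13.15 in N87-TR3 and 14.11 ± 0.31 in the others (SD, n = 3), a log2 difference of -0.96 ± 0.33 (SE, limma adjusted p = 0.199). The NEFL level was 9.09 in N87-TR3 and 10.35 ± 0.52 in the others (SD, n = 3), a log2 difference of -1.26 ± 0.43 (SE, limma adjusted p = 0.197). NEFH was 7.12 in N87-TR3 and was not detected in the other 3 lines. As it entered the tests through N87-TR3 alone, no test of that difference is given. In that comparison 0.954% of all tested genes passed, 0.882% being lower and 0.0721% higher. VIM, PRPH, NEFL, NEFM and NES were not among them. PRPH was 9.02 in N87-TR1 and 7.80 ± 0.27 in the others (SD, n = 3), a log2 difference of 1.22 ± 0.36 (SE), and did not pass either (limma adjusted p over 0.99).

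NEFM had the largest fall of all tested genes in N87-TR4 against the other 3 lines. Its level was 5.74 in N87-TR4 and 12.58 ± 0.90 in the other 3 lines (SD, n = 3). Set against the detection limit of N87-TR4, NEFM was at least 86.0-fold lower there. NEFM was the only one of 12478 tested genes (0.00801%) at least 16-fold lower in N87-TR4. As the members were chosen with results of these data known, this is given as a description. By limma 0% of tested genes passed for N87-TR4, as for N87-TR1 and N87-TR2, with 176 genes for N87-TR4 at an unadjusted p under 0.05, 509 for N87-TR1 and 327 for N87-TR2. With an intensity trend and a robust prior the counts for these 3 lines were also 0. Scaling arrays to the 75th percentile was the only 1 of 8 alternatives in which NEFM passed for N87-TR4. As NEFM is only described here, that is not a test result.

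**Figure D2:**
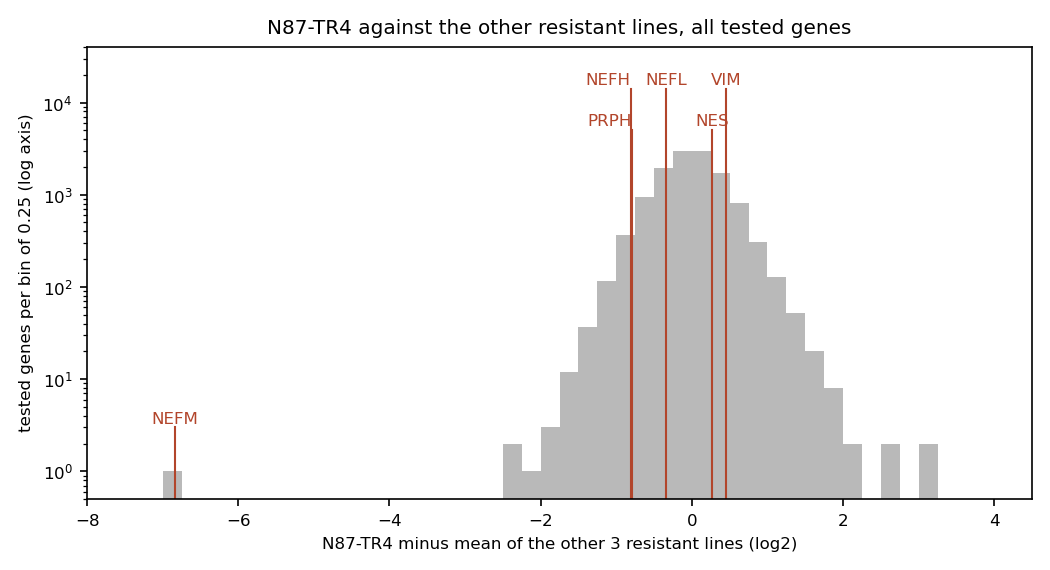
Histogram of the log2 difference between N87-TR4 and the mean of the other 3 resistant lines over 12478 tested genes, in bins of 0.25 with a log count axis; red lines mark the 6 tested intermediate filament genes. NEFM stands alone at -6.84, a measured value that is not above background in N87-TR4, while the other 5 members lie between -0.81 and 0.46.

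The other members gave N87-TR4 no such position. Its NEFL level of 9.78 compared with 10.12 ± 0.91 in the other 3 lines (SD, n = 3), and its VIM level of 14.21 with 13.75 ± 0.60 (SD, n = 3). N87-TR4 also detected the most genes of all arrays, 11069. The pattern of NEFM, detected in N87-TR1, N87-TR2 and N87-TR3 and in neither N87-TR4 nor NCI-N87, held for 34 of 12478 genes (0.272%). NEFM and NEFL are neighbours on chromosome 8 in the RefSeq gene order, and DOCK5 and GNRH1 follow NEFL. In N87-TR4 the log2 difference from the other 3 lines was -0.34 for NEFL and -0.22 for GNRH1, neither of them near that of NEFM. For DOCK5 it was -0.16. The DOCK5 levels of 5.48 to 5.87 lay under the detection limit in every resistant line, so its value compares background with background. ADAM7, ADAMDEC1 and ADAM28, on the other side of NEFM, were not tested.

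Likeness to VIM was measured as the root mean square gap between a gene's 4 log2 differences from NCI-N87, 1 per resistant line, and those of VIM. The 6 nearest genes were COLEC12, a scavenger receptor with a collectin domain, TUSC3, a subunit of the oligosaccharyltransferase, SH3GL2, which encodes endophilin A1, GPC4, a glypican, SGCE, the epsilon sarcoglycan, and the histone variant gene MACROH2A2. Their gaps ran from 0.27 for COLEC12 to 0.47 for MACROH2A2 over the 4 lines. These are gaps to the brighter VIM probe. The second VIM probe differed from NCI-N87 by 6.09, 6.66, 5.73 and 6.21 in N87-TR1 to N87-TR4. Likeness to that probe was not measured. With a gene's probes averaged, the mean log2 difference of TUSC3 was 3.71 and that of VIM 5.72. COLEC12 differed from NCI-N87 by 5.15, 5.30, 4.27 and 5.75 in N87-TR1 to N87-TR4, against 5.16, 5.74, 4.54 and 5.60 for VIM, so both were lowest in N87-TR3. Unlike VIM, all 6 had levels of 4.79 to 5.48 in NCI-N87, under its detection limit, so the size of their differences rests on the background correction. Without that correction the mean log2 difference of VIM was 4.89 and those of the 6 genes were 3.17 to 3.72, and in the authors' processed values they were 4.80 for VIM and 3.19 to 3.73 for the 6. The likeness therefore holds on the background-corrected scale, with each gene taken by its brightest probe. No other member was among the 6 nearest genes.

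**Figure D3:**
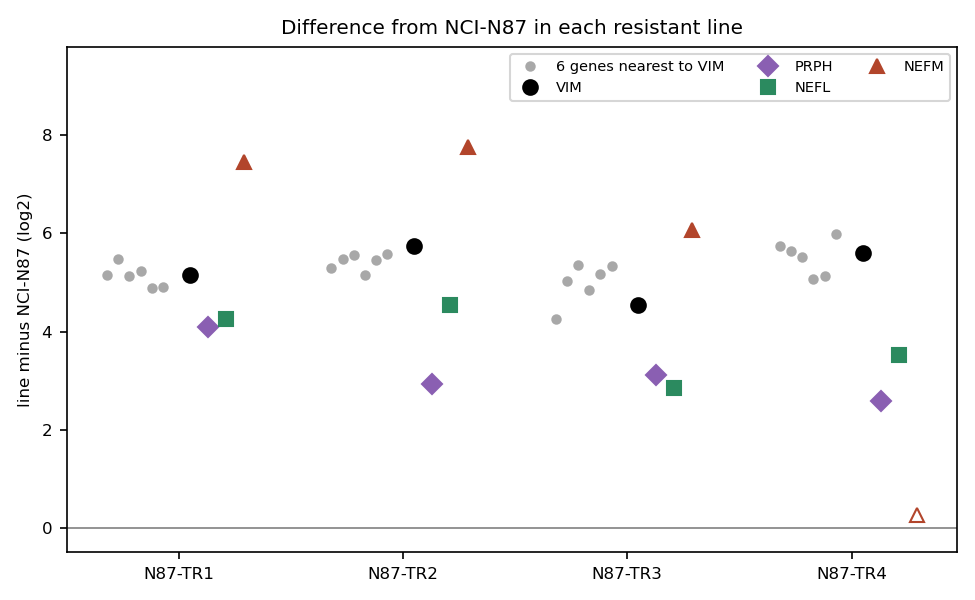
Log2 difference from NCI-N87 in each resistant line for VIM (brighter probe), PRPH, NEFL, NEFM and the 6 genes nearest to VIM (grey), 1 array per point; the open triangle was not detected. VIM lies between 4.54 and 5.74 in all 4 lines, and NEFM is at 0.26 in N87-TR4; all of these except VIM were not detected in NCI-N87, so their heights depend on the background correction.

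Genes that build, bind or regulate these filaments were then counted in the comparison of the 4 resistant lines with NCI-N87, fitted with limma over all genes. In that comparison 23.2% of tested genes passed, 12.6% higher and 10.6% lower, with a median log2 difference of 0.07 over all tested genes. Of 67 tested genes on 5 lists, 14 were higher and 19 lower. Adjusted p-values below are Benjamini-Hochberg values from limma over all 12478 genes.

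Among 6 tested non-keratin filament genes outside the members, 2 rose, 1 fell and 3 did not pass, with a median log2 difference of 0.58. IFFO1, a member of the filament superfamily, rose 18.9-fold, with levels of 11.87 ± 0.07 in the resistant lines (SD, n = 4) and 7.63 in NCI-N87 (adjusted p = 0.000125). SYNM encodes synemin, a type IV protein that joins vimentin and desmin filaments. NCI-N87 gave no detected signal for it, and the bound was at least 4.55-fold higher, from a mean of 8.59 ± 0.09 in the resistant lines (SD, n = 4; adjusted p = 0.000243). LMNA, the A-type lamin of the nuclear envelope, fell 2.17-fold (adjusted p = 0.0354), and did not pass without N87-TR1 (0.0710), N87-TR2 (0.0816) or N87-TR4 (0.0726), or when arrays were scaled to the 75th percentile (0.0885).

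Keratins, the filaments of epithelia, moved the other way. Of 12 tested, 10 fell, none rose and 2 did not pass, with a median log2 difference of -5.19. Of 15 on the array, 2 to 3 were detected in the resistant lines and 12 in NCI-N87. KRT19, a keratin of simple epithelia that is also on the gastric marker list, was at least 576-fold lower, with a level of 15.50 in NCI-N87 and no detection in any resistant line (adjusted p = 2.90e-05). KRT80 was at least 49.8-fold lower, KRT16 at least 28.7-fold and KRT23 at least 24.5-fold, and none of these was detected in a resistant line. KRT8, another keratin of simple epithelia, is on the gastric marker list as well. It is named after its value was seen, since it was detected in 3 resistant lines and its measured fall exceeded these last 3 bounds. Its level was 7.74 ± 1.45 in the resistant lines (SD, n = 4) and 13.84 in NCI-N87 (adjusted p = 0.00908).

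Filament linkers, which tie filaments to junctions and to other parts of the cytoskeleton, fell in 4 of 12 tested genes and rose in none, with a median log2 difference of -0.82. The 4 were the plakins EVPL (envoplakin), PPL (periplakin) and PLEC (plectin), and the desmosomal plakophilin PKP2. EVPL was at least 27.9-fold lower and PPL at least 9.89-fold, both undetected in all 4 resistant lines. PLEC, which binds vimentin as well as keratin filaments, fell 14.9-fold, with levels of 6.83 ± 0.43 in the resistant lines (SD, n = 4) and 10.72 in NCI-N87 (adjusted p = 0.000947). PKP2 fell 3.87-fold (adjusted p = 0.00622).

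Among 16 tested chaperones, kinases and turnover factors of filaments, 2 rose, 3 fell and 11 did not pass, with a median log2 difference of 0.03. The small heat shock protein HSPB1, a filament chaperone, fell 4.18-fold (adjusted p = 0.00607), and the protease CAPN1 fell 3.66-fold (adjusted p = 0.0206, and 0.0507 without N87-TR1). CDK5, a kinase of neurofilament tails, rose 3.22-fold (adjusted p = 0.00855). AURKB, which phosphorylates vimentin in mitosis, rose 3.19-fold (adjusted p = 0.0204). Without N87-TR1 the list had 3 genes past the test in place of 5.

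Transcription factors linked in the literature to the vimentin, nestin or neurofilament genes rose in 10 of 21 tested genes, fell in 1 and did not pass in 10, with a median log2 difference of 1.61. POU4F1, a factor of sensory neurons, was at least 24.5-fold higher, at 11.03 ± 0.48 in the resistant lines (SD, n = 4) and no detection in NCI-N87 (adjusted p = 0.000211). POU3F2 and SOX2, which act together on the nestin enhancer, were at least 3.88-fold and 3.12-fold higher (adjusted p = 0.00632 and 0.00276), while NES itself was detected in 1 resistant line. TCF4, a basic helix-loop-helix E protein, was at least 4.89-fold higher (adjusted p = 0.000828). JUN, an AP-1 subunit also named after its value was seen, was detected on all arrays and rose 5.61-fold (adjusted p = 0.0250). The gene that fell, named after its value was seen, was REST, the repressor of neuronal genes, detected in NCI-N87 and in no resistant line, and at least 1.96-fold lower (adjusted p = 0.0357).

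**Figure D4:**
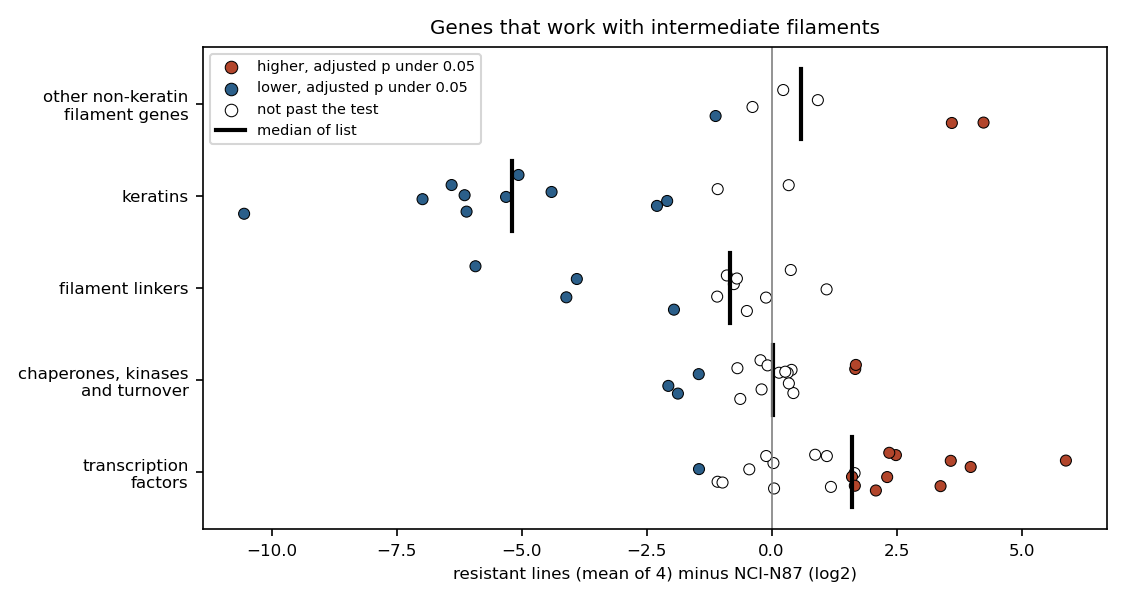
Log2 difference between the mean of the 4 resistant lines and NCI-N87 for the 67 tested genes of 5 lists, 1 point per gene, coloured by the limma call; black bars are list medians. Keratins lie mostly to the left (median -5.19) and the transcription factors mostly to the right (median 1.61).

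Between the resistant lines, 2 of the 67 genes passed, both lower in N87-TR3, where 0.882% of all tested genes were called lower. Both are named after their values were seen. The spectrin SPTBN1 was 4.16-fold lower, at 8.34 in N87-TR3 and 10.39 ± 0.07 in the others (SD, n = 3; limma adjusted p = 0.0361). The co-chaperone DNAJB6, known to bind keratins, was 4.55-fold lower, at 9.68 in N87-TR3 and 11.86 ± 0.08 in the others (SD, n = 3; limma adjusted p = 0.0338). Neither passed when a gene's probes were averaged, when arrays were scaled to the 75th percentile or without a detection filter.

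Because neurofilaments are neuronal proteins, markers of neurons and neuroendocrine cells were set beside them. Of 14 such markers, 6 to 7 were detected in the resistant lines and 4 in NCI-N87. Of the 8 tested, 3 were higher and none lower by limma, with a median log2 difference of 1.47. Over all tested genes 12.6% were higher and 10.6% lower. INSM1, a neuroendocrine transcription factor, rose 10.4-fold (adjusted p = 0.0252) and the neuronal enolase ENO2 5.69-fold (adjusted p = 0.0163). SNAP25, a synaptic fusion protein, was at least 1.70-fold higher (adjusted p = 0.0384). Of the 5 that did not pass, 2 had levels below NCI-N87 in all 4 resistant lines. TUBB3, the neuronal beta-tubulin, was 9.20 ± 1.02 in the resistant lines (SD, n = 4) and 11.09 in NCI-N87 (adjusted p = 0.142). MAP2, a microtubule protein of dendrites, was 6.68 ± 0.27 in the resistant lines (SD, n = 4) and 7.81 in NCI-N87 (adjusted p = 0.0564). The summed linear intensity of the list was 2315 to 6959 in the resistant lines and 3095 in NCI-N87, so these ranges overlapped. CHGB, STMN2, ELAVL3, ELAVL4, DCX and RBFOX3 were not detected on any array. The part of these markers in the filament values was not tested, and in bulk RNA fewer cells of a type cannot be told apart from less RNA per cell.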

How the data were processed

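Illumina BeadChip arrays measured total RNA of 5 cell lines (1 array each), all on 1 chip per the labels. The authors deposited a scanner-level intensity, linear and not normalized, for 47318 probes, and beside it a detection p-value. Per the submitters' processing notes the software was GenomeStudio. The authors also deposited processed values, a linear intensity with a median of 146.3 on each array. How they were made is not given in the sources used. They served as an alternative.

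Intensities were background corrected from the detection p-values, log2 transformed and quantile normalized as in neqc (limma 3.58.1, R 4.3.3, offset 16). Probes were named through the platform annotation, updated by gene ID through RefSeq GRCh38.p14: 30111 had 1 symbol, 8 several and 17199 are unnamed here. Tested were the 12478 genes with a single-symbol probe detected (p under 0.01) on any array, each by its brightest such probe. limma's lmFit and eBayes (two-sided) compared the 4 resistant lines with NCI-N87 (3 residual degrees of freedom, 3.86 prior) and each resistant line with the other 3 (2 residual). The fitting code was tested on simulated data with known changes. The number of arrays limits the precision.

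The members and lists were chosen with earlier results of these data known. Named from each list were up to 4 genes past the test with the largest fitted log2 difference (which ranks undetected probes by their fitted value), and for likeness the 6 genes nearest to VIM. Of the other marker lists, glia had 1 of 2 tested genes higher and 1 lower, muscle 1 of 3 lower and leukocytes 1 of 3 lower. Over all tested genes the shares were 12.6% higher and 10.6% lower.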

Additional observations from a re-analysis of the deposited data

How the results depend on the processing

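No paired analysis was possible because NCI-N87 is a single array. A slide block could not be fitted because all arrays are on 1 chip. The log2 differences of the 6 tested members from NCI-N87 could be repeated under 11 to 13 alternatives each, and kept their sign in all 71 repeats. They moved by less than the spread of the resistant lines in 66. The other 5 were PRPH without background correction (1.64), with an offset of 50 (2.28) and in the authors' processed values (1.71), and NEFL without background correction (2.61) and in the authors' values (2.61). VIM ranged from 4.80 to 5.72 and NEFM from 4.00 to 7.10. The counts of 71 and 66 include repeats that could not move a value. Changing the detection filter or its limit left each repeated member value as it was, and so did averaging probes for members with a single probe. For NEFM the spread of the resistant lines is wide (SD 3.50, n = 4), so shifts to 4.00 or 7.10 fell within it. Requiring detection on all 5 arrays, which by construction drops genes absent from a group, left 1 member at least 2-fold higher in place of 4, and 13 genes of the 5 lists past the test in place of 33. It also gave 1464 genes past the test of the resistant lines against NCI-N87 in place of 2895, with 831 higher and 633 lower. An adjusted p under 0.01 gave 1379, with 686 higher and 693 lower. Leaving out 1 resistant line gave 2108 to 3789. For N87-TR3 against the other 3 the count of 119 became 314 without background correction, 307 in the authors' values, 259 with detection on all 5 arrays, 279 with a trend and robust prior, 70 with scaling to the 75th percentile, 44 with probes averaged and 13 without a detection filter, and the cause was not tested. Neither VIM nor NEFL passed under any of these in which it was tested, and NEFL was not tested with detection on all 5 arrays. For N87-TR4 the count of 0 changed only with scaling to the 75th percentile, where NEFM passed. NEFM did not pass in the other 7 of its 8 alternatives, and as a described member it has no test result here. Its log2 difference in N87-TR4 from the other 3 lines ranged from -7.09 to -5.19 over the alternatives. Of 236 repeats for the 19 list genes named by the rule, 8 lost the call, in LMNA, CAPN1 and AURKB, and none reversed. NEFH without N87-TR3 and NES without N87-TR1 were not tested, having no detected array left.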

Other observations

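PRPH lies on chromosome 12 beside TROAP and, after it, C1QL4 in the RefSeq gene order. C1QL4, a secreted C1q-like protein and not a member of the lists, was named after its values were seen. Its levels were 8.14, 7.20, 7.29 and 7.07 in N87-TR1 to N87-TR4. In NCI-N87 its level was 5.05, under that array's detection limit of 6.41. Like PRPH it was highest in N87-TR1 and lowest in N87-TR4. TROAP, which lies between them, had levels of 9.97 to 10.72 in the resistant lines and 10.05 in NCI-N87. DNAJC22, the gene after C1QL4, went the other way. Its levels were 8.03, 7.65, 7.72 and 7.56 in N87-TR1 to N87-TR4, against 9.39 in NCI-N87. Among the resistant lines it too was highest in N87-TR1 and lowest in N87-TR4. The alpha-tubulin genes TUBA1C, TUBA1A and TUBA1B on the other side of PRPH differed from NCI-N87 by -0.11, 0.13 and 0.36 on the log2 scale.

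OLIG2, a glial transcription factor, was at least 4.02-fold higher, with a resistant mean of 8.42 ± 0.58 (SD, n = 4) and no detection in NCI-N87. MBP, the other tested glial marker, went the other way and was 4.92-fold lower. Its level was 8.65 ± 0.50 in the resistant lines (SD, n = 4) and 10.95 in NCI-N87. The summed linear intensity of the glial list was 820 to 1037 in the resistant lines and 2127 in NCI-N87. GFAP was not detected on any array.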
